A study of Homo sapiens with 18 samples.

Results

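Transcripts of 10 growth factor receptors that are used to describe melanoma cell states were followed through an inducible PPP2R3B overexpression series. The receptors were AXL, EGFR, NGFR, ERBB2, ERBB3, PDGFRB, KIT, MET, FGFR1 and IGF1R, taken by name from the 58051 genes of the deposited table, and all 10 were found by their gene identifiers. RNA was sequenced from SKMEL2 and SKMEL30, 2 cell lines of NRAS-mutant melanoma, each stably carrying the doxycycline-inducible pTRIPZ-PPP2R3B vector. PPP2R3B encodes PR70, a regulatory subunit of the phosphatase PP2A. In each line, 3 libraries came from uninduced cells, 3 from cells given doxycycline for 6 h and 3 from cells given it for 18 h, 18 libraries in all. The later time is called 18 h, as on the sample labels. The study's text names a different hour. The uninduced cells carried the vector too, and no library of cells given doxycycline without the vector was analysed here, so doxycycline and PPP2R3B cannot be told apart as the agent. Each line is a single culture model, and the labels do not say whether the 3 libraries of a group came from separate cultures, so the p-values measure the spread between these libraries.

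Receptor tyrosine kinases bind growth factors outside the cell, pair up, and pass the signal through docking proteins to the MAP kinase and PI3 kinase pathways. NGFR is the exception among the 10, a neurotrophin receptor without a kinase domain. In melanoma, high AXL and EGFR with low MITF, the transcription factor that drives the melanocyte programme, are known marks of a dedifferentiated state. NGFR marks a neural crest-like state, while KIT and ERBB3 are typical of cells of the melanocyte lineage. A question the series addresses is whether PPP2R3B overexpression moves melanoma cells between such states.

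Library totals ran from 13402645 to 22383470 counts. Levels are given as CPM, a gene's count scaled to a common library total, after TMM scaling over all 18 libraries, with SD over n = 3 libraries of a group. A level is relative to all RNA in a library, so fewer cells with a transcript and less of it per cell cannot be told apart. Induction was seen in every library: PPP2R3B averaged 20.6 ± 3.59 CPM in uninduced SKMEL2 and 425 ± 86.3 CPM at 6 h, and 20.9 ± 1.35 CPM in uninduced SKMEL30 and 540.1 ± 22.7 CPM at 6 h. Both lines expressed melanocyte genes, with MITF at 408 ± 11.4 CPM in uninduced SKMEL2 and 797 ± 15.5 CPM in SKMEL30, and MLANA at 436 ± 12.8 and 292 ± 7.84 CPM. Of the keratinocyte markers, KRT1 was at 0 in all 18 libraries, but KRT5, KRT14 and DSG3 varied widely between libraries. In SKMEL2, KRT5 was above 1 CPM in each uninduced library and in some of the induced ones. No fit without all of these was made for that line. KRT5 passed 1 CPM in 3 induced SKMEL30 libraries, namely 6 h replicates 1 and 3 and 18 h replicate 3, and the receptor changes in SKMEL30 are also given without these libraries.

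Runs upstream of AXL, MET and ERBB2 are shown because these receptors differed clearly in level between the lines. Each run is the 250 bases before the annotated start on GRCh38.p14 in RefSeq, written 5′ to 3′ on the strand of the gene, which is the plus strand for all 3. They lie at chr19:41218973-41219222, chr7:116671946-116672195 and chr17:39687844-39688093. Capitals mark matches to a GC box (GGGCGG on either strand) in AXL and MET. In ERBB2 they mark a match to TGANTCA (N is any base, either strand), a loose AP-1-like pattern. Other start sites of these genes were not looked at, so a run need not be the promoter in use.
AXL: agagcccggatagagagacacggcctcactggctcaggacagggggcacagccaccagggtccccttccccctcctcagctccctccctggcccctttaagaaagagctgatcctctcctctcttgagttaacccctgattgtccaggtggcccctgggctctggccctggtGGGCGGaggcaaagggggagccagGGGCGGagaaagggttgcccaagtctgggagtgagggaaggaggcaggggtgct
MET: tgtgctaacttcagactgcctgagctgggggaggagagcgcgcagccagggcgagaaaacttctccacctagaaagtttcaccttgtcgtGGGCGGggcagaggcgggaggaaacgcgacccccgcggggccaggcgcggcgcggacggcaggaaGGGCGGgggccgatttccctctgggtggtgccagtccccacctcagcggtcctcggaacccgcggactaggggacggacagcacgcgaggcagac
ERBB2: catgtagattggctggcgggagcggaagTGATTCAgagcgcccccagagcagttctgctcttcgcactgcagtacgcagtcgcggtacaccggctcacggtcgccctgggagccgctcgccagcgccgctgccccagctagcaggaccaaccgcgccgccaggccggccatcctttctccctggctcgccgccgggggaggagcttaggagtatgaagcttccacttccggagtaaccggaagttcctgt

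The AXL run held 2 GC boxes at a GC content of 64.4% and the MET run 2 at 68.4%. The ERBB2 run held 0 GC boxes and 1 match to TGANTCA, read as TGATTCA, at 65.6%. Over 27305 promoters of the same length, 42.3% held a GC box and 6.6% a match to TGANTCA, and the median GC content was 58%. The M-box core CATGTG, the E-box CACGTG, the TEAD site GGAATG and the TATA box TATAAA, also searched on both strands, had 0 matches in the 3 runs. These letters are a description of the sequence and say nothing of which factor binds there.

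**Figure D1:**
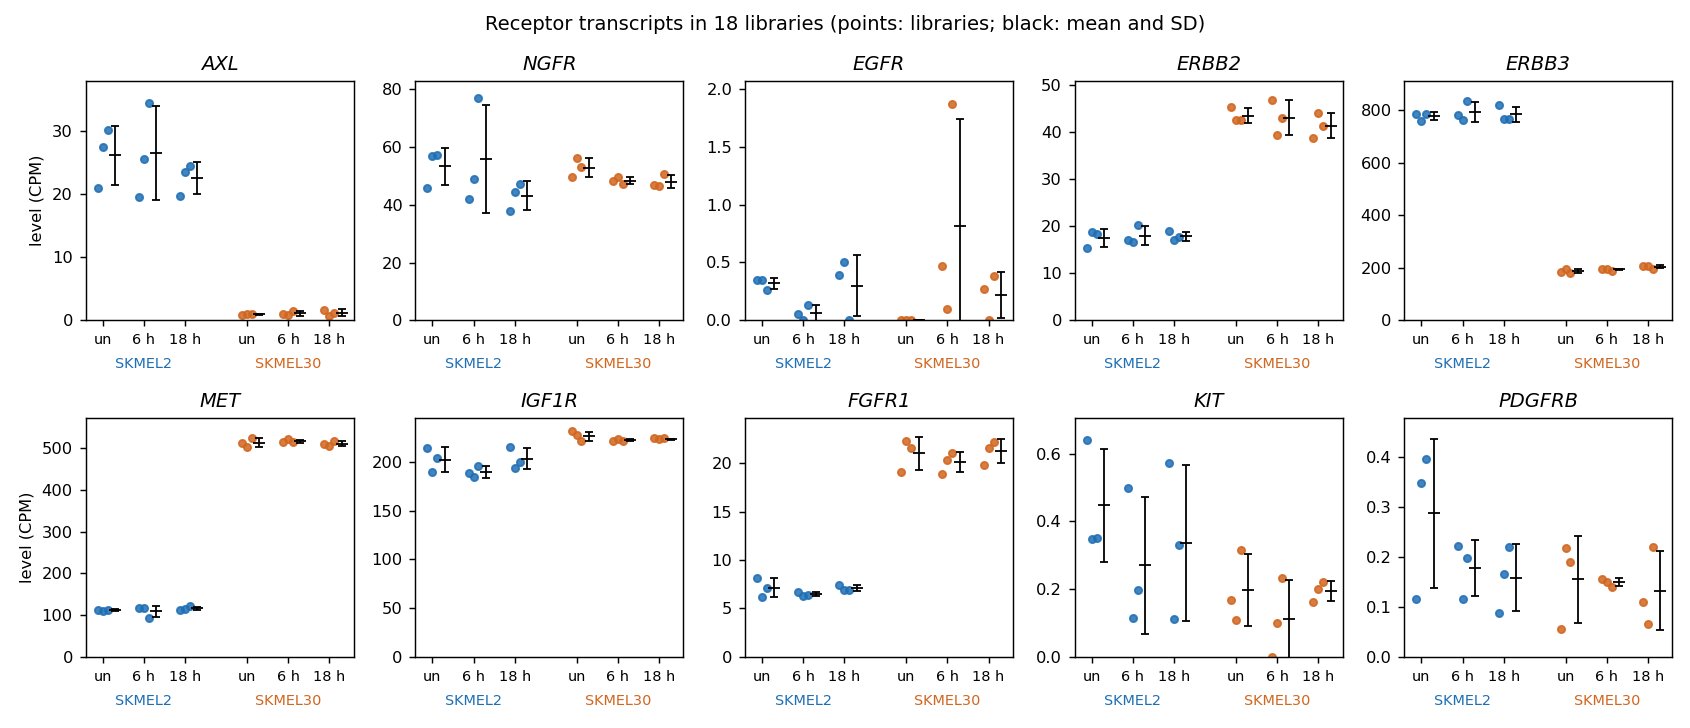
Level of each receptor (CPM, linear axis from 0, scaled separately per panel) in uninduced cells (un), at 6 h and at 18 h, for SKMEL2 (blue) and SKMEL30 (orange). Points are single libraries, and black bars give the mean and SD of 3 libraries, cut at 0. AXL and ERBB3 sit higher in SKMEL2, MET, ERBB2 and FGFR1 higher in SKMEL30, and within a line the 3 time groups overlap for most receptors.

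The 2 lines carried different receptor repertoires before induction. AXL and ERBB3 were higher in SKMEL2, whereas MET, FGFR1, ERBB2 and, slightly, IGF1R were higher in SKMEL30, and NGFR stood at the same level in both within its error. Of the 7 receptors that passed the filter on low counts, 6 were called between the uninduced lines (edgeR's quasi-likelihood test, Benjamini-Hochberg adjusted p under 0.05 over 17133 genes). Of all genes tested, 75.9% were called in this comparison, 40.1% higher and 35.8% lower in SKMEL2, so a called receptor is the common case here. The groups did not overlap for 6 of the 7 receptors, against 78.4% of all genes. With 1 line on each side, the test compares these 2 lines and no wider classes of melanoma.

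AXL (chr19:41219223-41261766), the receptor for GAS6, was measured in the uninduced SKMEL2 libraries at 20.9, 27.4 and 30.1 CPM and in the uninduced SKMEL30 libraries at 0.845, 0.981 and 0.949 CPM. The ranges were far apart, and the fitted difference was 4.82 on the log2 scale (SE 0.27, 28.2-fold, edgeR adjusted p = 3.54e-12). The SKMEL30 values came from 15, 18 and 15 counts, which makes them much less precise than those of SKMEL2, at 359, 551 and 684 counts.

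ERBB3 (chr12:56080108-56103505) binds neuregulins, has little kinase activity of its own and signals by pairing with ERBB2. Its level was 783, 759.7 and 786 CPM in uninduced SKMEL2 and 185, 194 and 181 CPM in uninduced SKMEL30. The groups stood well apart, with a log2 difference of 2.05 (SE 0.05, 4.15-fold, edgeR adjusted p = 2.63e-18). Its partner ERBB2 (chr17:39688094-39728658) went the other way, at 15.4, 18.8 and 18.3 CPM in SKMEL2 and 45.3, 42.7 and 42.5 CPM in SKMEL30. That is a log2 difference of -1.31 (SE 0.09), or 2.48-fold more in SKMEL30 (edgeR adjusted p = 4.68e-11).

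MET (chr7:116672196-116798377), the receptor for hepatocyte growth factor, had the second largest difference among the 7 receptors that passed the filter. It stood at 112, 109.7 and 113 CPM in uninduced SKMEL2 and at 513, 503 and 524 CPM in uninduced SKMEL30, groups with little spread and no overlap. The log2 difference was -2.20 (SE 0.06), which is 4.60-fold more in SKMEL30 (edgeR adjusted p = 5.49e-17). FGFR1, a fibroblast growth factor receptor, measured 8.15, 6.21 and 7.12 CPM in SKMEL2 and 19.1, 22.3 and 21.6 CPM in SKMEL30, which is 2.94-fold more in SKMEL30 (log2 difference -1.56, SE 0.09, edgeR adjusted p = 7.98e-12).

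The other 2 receptors tested were near in level in the 2 lines. IGF1R (chr15:98648539-98964530), the receptor for insulin-like growth factors, measured 214, 189 and 204 CPM in uninduced SKMEL2 and 231, 227 and 221 CPM in SKMEL30. Its groups did not overlap, but the difference was only 1.12-fold (log2 -0.16, SE 0.05, edgeR adjusted p = 0.00473). NGFR (chr17:49495293-49515008) was at 46.0, 56.8 and 57.2 CPM in SKMEL2 and at 49.5, 56.1 and 53.1 CPM in SKMEL30. These ranges overlapped, and the log2 difference of 0.02 had a 95% interval from -0.29 to 0.32 (edgeR adjusted p = 0.928), which leaves room for a modest difference either way.

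EGFR, KIT and PDGFRB were close to the limit of detection in both lines and did not pass the filter in the fits reported here. EGFR (chr7:55019017-55211628) gave 6, 7 and 6 counts in uninduced SKMEL2 and 0 in each of the 3 uninduced SKMEL30 libraries, where a count of 0 allows a level of up to 0.163, 0.158 and 0.184 CPM (3 counts, counting error only). With no filter, EGFR was also called between the uninduced lines (edgeR adjusted p = 2.53e-05, and 0.00686 in DESeq2). KIT (chr4:54657957-54740715), the stem cell factor receptor on which melanocytes depend, gave 11, 7 and 8 counts in uninduced SKMEL2 and 3, 2 and 5 in SKMEL30. PDGFRB (chr5:150113839-150155845), a receptor of mesenchymal cells, gave 2, 7 and 9 counts and 1, 4 and 3 counts. Neither KIT nor PDGFRB was called between the lines with no filter, with edgeR adjusted p of 0.146 and 0.373.

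To order the receptors within a line, levels were divided by the length of their merged exons. In uninduced SKMEL2, ERBB3 led at 66.3 ± 1.23 CPM per kb, followed by MET at 15.5 ± 0.247, IGF1R at 14.5 ± 0.915 and NGFR at 12.9 ± 1.53. AXL stood at 5.09 ± 0.920 CPM per kb, ERBB2 at 1.69 ± 0.180 and FGFR1 at 0.416 ± 0.0563. MET could not be separated from IGF1R, nor IGF1R from NGFR, nor PDGFRB from KIT, so that 6 of the 9 steps in the order separated their neighbours.

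In uninduced SKMEL30 the lead passed to MET, at 71.1 ± 1.40 CPM per kb. IGF1R at 16.2 ± 0.349 and ERBB3 at 16.0 ± 0.572 overlapped, and NGFR followed at 12.8 ± 0.804, ERBB2 at 4.21 ± 0.155, FGFR1 at 1.22 ± 0.0977 and AXL at 0.180 ± 0.0139. Here 7 of the 9 steps separated their neighbours. The top of each order held 1 receptor well above the rest, ERBB3 in SKMEL2 and MET in SKMEL30. When the longest transcript was used as the length, ERBB3 and MET still led, and ERBB3 in SKMEL30 stood second at 29.9 ± 1.07 CPM per kb, apart from IGF1R at 18.5 ± 0.397.

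**Figure D2:**
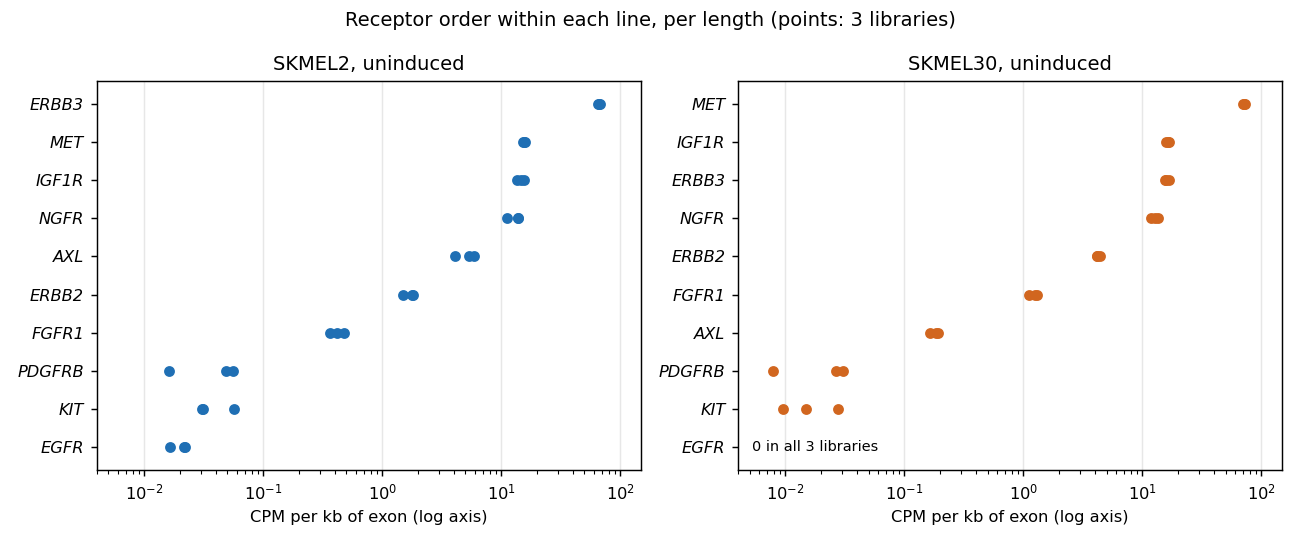
Level per length (CPM per kb of merged exon, log axis) of the 10 receptors in the 3 uninduced libraries of each line (points), ordered by their mean. ERBB3 leads at 66.3 in SKMEL2 and MET at 71.1 in SKMEL30, and EGFR was at 0 in all 3 SKMEL30 libraries.

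Partners of the receptors also differed between the uninduced lines, where 75.9% of all genes were called, 40.1% higher and 35.8% lower in SKMEL2. Of 13 ligand genes tested, out of 30 listed, 10 were called higher and 2 lower in SKMEL2, with a median log2 difference of 0.98 against 0.05 over all genes. TGFA, a ligand of EGFR, stood at 123 ± 5.88 CPM in SKMEL2 and 0.489 ± 0.154 CPM in SKMEL30 (edgeR adjusted p = 3.50e-18). EGF measured 15.8 ± 2.32 and 0.664 ± 0.197 CPM, and FGF1, a ligand of FGF receptors, 7.51 ± 0.351 and 0.329 ± 0.0490 CPM, both called. FGF5 was called the other way, at 0.0340 ± 0.0303 CPM in SKMEL2 and 7.51 ± 0.377 CPM in SKMEL30. EGFR itself was low in both lines, with 0.499 CPM as its highest value over the SKMEL2 libraries and 1.87 CPM over those of SKMEL30. HGF, the ligand of MET, was at 0 in all SKMEL2 libraries and averaged 0.0399 ± 0.0347 CPM in uninduced SKMEL30, and KITLG, the ligand of KIT, ranged from 15.3 to 20.3 CPM.

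Of 12 related receptors and co-receptors tested, out of 20, all were called, 8 higher and 4 lower in SKMEL2, beside 75.9% of all genes. FGFR3 measured 5.84 ± 0.629 CPM in SKMEL2 and 0.188 ± 0.112 CPM in SKMEL30, and FGFR4 41.8 ± 0.510 and 8.81 ± 1.45 CPM, the opposite direction to FGFR1. The insulin receptor INSR, the nearest relative of IGF1R, stood at 1.19 ± 0.343 and 18.1 ± 1.80 CPM, and MERTK, which belongs to the family of AXL, at 2.45 ± 0.420 and 10.3 ± 0.720 CPM. Like FGFR1 and MET, and unlike AXL, INSR and MERTK were called higher in SKMEL30.

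Among 24 adaptors and signal relays tested, out of 26, 9 were called higher and 13 lower in SKMEL2. Of all genes, 40.1% were called higher and 35.8% lower. GRB14, which binds and restrains the insulin receptor, measured 9.25 ± 0.203 CPM in SKMEL2 and 0.828 ± 0.0145 CPM in SKMEL30, and PLCG2, a phospholipase, 16.2 ± 1.34 and 3.94 ± 0.243 CPM. CRKL was lower in SKMEL2, at 52.1 ± 2.45 against 143 ± 0.872 CPM, as was the docking protein IRS1, at 18.0 ± 1.21 against 30.6 ± 0.435 CPM. Of 29 genes for inhibition, turnover and shedding tested, out of 32, 13 were called higher and 15 lower, beside the same shares of all genes. LRIG1, which promotes the loss of ERBB receptors, was at 35.9 ± 0.0944 CPM in SKMEL2 and 3.79 ± 0.279 CPM in SKMEL30. The binding proteins of insulin-like growth factors split, with IGFBP7 at 125 ± 2.99 and 0.0797 ± 0.0694 CPM and IGFBP2 at 13.5 ± 0.847 and 1.57 ± 0.248 CPM, but IGFBP4 at 0.336 ± 0.144 and 14.1 ± 1.19 CPM.

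Genes of the melanocytic state were mostly lower in SKMEL2, and those of the undifferentiated state mostly higher. Of 14 melanocytic genes tested, 4 were called higher and 9 lower in SKMEL2 (median log2 difference -1.16). Of 14 undifferentiated genes tested, out of 16, 10 were called higher and 2 lower (median 0.51). Over all genes, 40.1% were called higher and 35.8% lower (median 0.05). The pigment enzyme TYRP1 measured 4.06 ± 0.550 CPM in SKMEL2 and 1282 ± 43.6 CPM in SKMEL30, TRPM1 0.363 ± 0.227 and 161 ± 2.90 CPM, and OCA2 5.73 ± 0.0260 and 56.8 ± 1.84 CPM. The transcription factor ZEB1 measured 18.7 ± 1.90 CPM in SKMEL2 and 0.0182 ± 0.0315 CPM in SKMEL30, TGFBI 102 ± 4.13 and 1.20 ± 0.380 CPM, CCN2 139 ± 11.9 and 16.3 ± 0.458 CPM, and tenascin C (TNC) differed by 2.83 on the log2 scale (SE 0.06), at means of 1111 and 156 CPM. Some genes of both lists went the other way by their medians over the 9 libraries of a line. Of the melanocytic list, SOX10 stood at 616 CPM in SKMEL2 and 455 CPM in SKMEL30, TYR at 437 and 239 CPM and S100B at 381 and 127 CPM. Of the undifferentiated list, FOSL1 stood at 38.3 and 114 CPM and CD44 at 561 and 789.6 CPM. The line with more AXL was the line with less MITF and more ZEB1. ERBB3, a receptor typical of the melanocyte lineage, was also the higher in that line.

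Induction of PPP2R3B left the 7 tested receptors below the threshold at both times in both lines. At 6 h in SKMEL2, 0 of 7 were called, against 0.0124% of all 16120 genes tested, and 0 of 7 had an unadjusted p under 0.05. At 18 h in SKMEL2, 0 of 7 were called, again against 0.0124% of all genes. In SKMEL30, 0 of 7 were called at 6 h, against 0.206% of 15026 genes (0.0932% higher), and 0 of 7 at 18 h, against 0.293% (0.173% higher). At an unadjusted p under 0.05 stood NGFR at 6 h and NGFR and ERBB3 at 18 h. With both times joined, 0 of 7 were called in SKMEL2 (0.0186% of all genes) and in SKMEL30 (0.260%). So few genes were called at all that a count of 0 among 7 receptors is near the background and tells little about them.

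**Figure D3:**
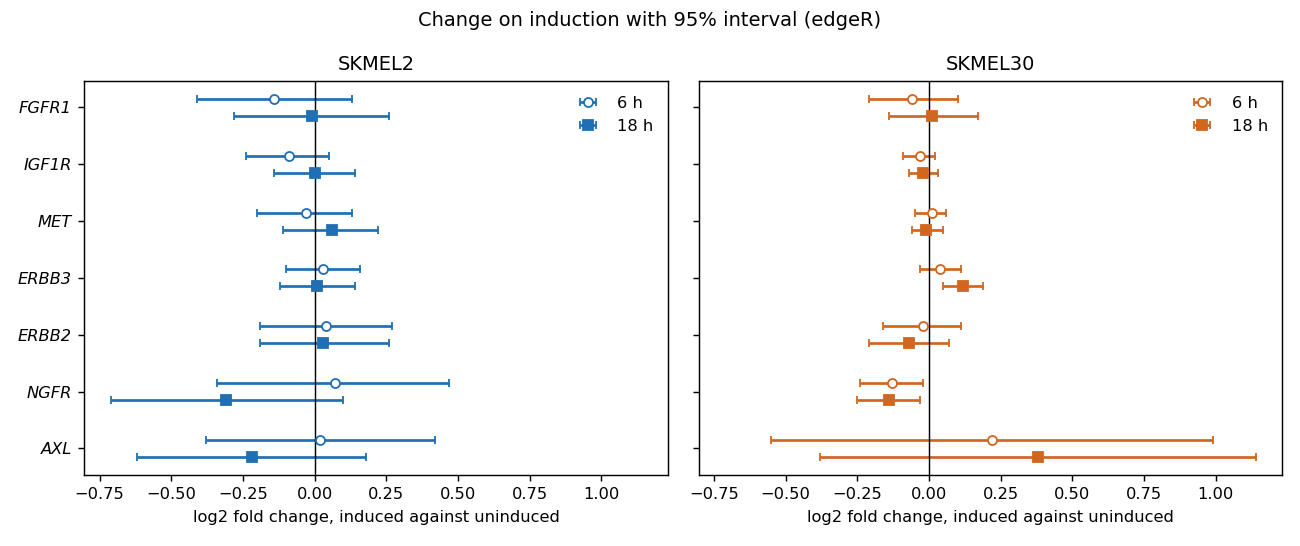
Log2 fold change of the 7 tested receptors at 6 h (open circles) and 18 h (filled squares) against uninduced cells in each line, with 95% intervals from edgeR. Most intervals include 0, and those of ERBB3 at 18 h and NGFR at both times in SKMEL30 lie on 1 side of it without passing the adjusted threshold.

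The abundant receptors could be bounded closely. In SKMEL30 MET measured 513, 503 and 524 CPM uninduced, 515, 521 and 514 CPM at 6 h and 511, 504 and 518 CPM at 18 h, with overlapping ranges. Its log2 changes were 0.01 (95% interval -0.05 to 0.06) at 6 h and -0.01 (-0.06 to 0.05) at 18 h. IGF1R in SKMEL30 measured 231, 227 and 221 CPM uninduced, 221, 223 and 221 CPM at 6 h and 224, 223 and 224 CPM at 18 h, with log2 changes of -0.03 (-0.09 to 0.02) and -0.02 (-0.07 to 0.03). A change in either gene of the size that separates the lines for MET would lie far outside these intervals.

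ERBB3 in SKMEL30 came nearest to a call. It measured 185, 194 and 181 CPM uninduced, 196, 193 and 189 CPM at 6 h and 207, 207 and 196 CPM at 18 h. All 3 libraries of 18 h lay above all 3 uninduced ones, as they did, in either direction, for 16.0% of all genes, while those of 6 h overlapped. The log2 change at 18 h was 0.12 (SE 0.03, 95% interval 0.05 to 0.19), an increase of 8.66%, with an adjusted p of 0.218 in edgeR. It passed the threshold only with no filter on low counts (edgeR adjusted p = 0.0383), where 359 genes were called instead of 44. At 6 h the change was 0.04 (-0.03 to 0.11). In SKMEL2, ERBB3 measured 783, 759.7 and 786 CPM uninduced, 780.5, 761 and 834 CPM at 6 h and 817, 766 and 766 CPM at 18 h, with changes of 0.03 (-0.10 to 0.16) and 0.01 (-0.12 to 0.14). The 18 h response of ERBB3 was compared between the lines in an interaction term, which was not called (-0.11, 95% interval -0.24 to 0.02, edgeR adjusted p = 0.895).

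NGFR in SKMEL30 was lower by a similar amount at both times without passing the threshold. It measured 49.5, 56.1 and 53.1 CPM uninduced, 48.4, 49.6 and 47.2 CPM at 6 h and 46.9, 46.4 and 50.6 CPM at 18 h, so the highest induced libraries reached into the uninduced range. The log2 change was -0.13 (-0.24 to -0.02, edgeR adjusted p = 0.701) at 6 h and -0.14 (-0.25 to -0.03, edgeR adjusted p = 0.425) at 18 h. Over both times it was -0.13 (SE 0.04, edgeR adjusted p = 0.366). The 2 times share their uninduced libraries, so their likeness is no independent repeat. Without the 3 induced libraries with KRT5 above 1 CPM, 0 of 7 receptors were called at either time. NGFR then changed by -0.10 at 6 h and -0.18 at 18 h (edgeR adjusted p = 0.642 and 0.419), and ERBB3 by 0.03 and 0.15 (0.820 and 0.226). ERBB2 at 6 h went from -0.02 to -0.15 (edgeR adjusted p = 0.514) and AXL at 6 h from 0.22 to -0.30 (0.888). This fit leaves 1 library at 6 h, which is assumed to vary like the other groups.

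NGFR and AXL in SKMEL2 were the most variable of the tested receptors between libraries of that line. NGFR measured 46.0, 56.8 and 57.2 CPM uninduced, 41.9, 48.8 and 77.0 CPM at 6 h and 37.8, 44.6 and 47.3 CPM at 18 h. AXL measured 20.9, 27.4 and 30.1 CPM uninduced, 19.5, 25.6 and 34.4 CPM at 6 h and 19.7, 23.5 and 24.5 CPM at 18 h. For both genes, replicate 3 of 6 h was the highest of the 9 libraries, and the 3 highest libraries were the same 3 for AXL as for NGFR. Within each SKMEL2 group, both genes rose with the replicate number, and the reason was not tested. Over the 9 libraries the coefficient of variation was 23.0% for NGFR and 19.8% for AXL in SKMEL2, against 3.30% for ERBB3 and 6.96% for MET. In SKMEL30 it was 6.34% for NGFR, and 1 of the 3 highest libraries was shared with AXL.

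**Figure D4:**
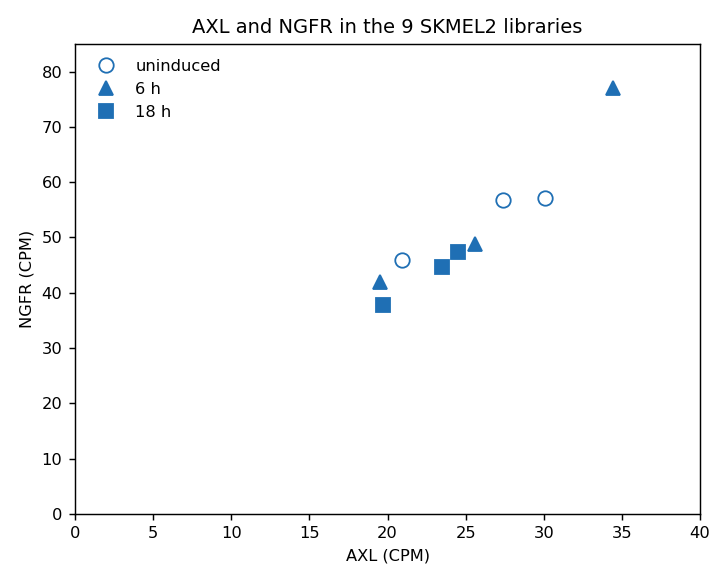
AXL against NGFR (CPM, both axes linear from 0) in the 9 SKMEL2 libraries, uninduced (open circles), 6 h (triangles) and 18 h (squares). Replicate 3 of 6 h lies at the top right, at 34.4 and 77.0 CPM, and the time groups are intermixed.

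The wide spread left the changes of these receptors in SKMEL2 loosely bounded. The log2 change of NGFR was 0.07 (-0.34 to 0.47) at 6 h and -0.31 (-0.71 to 0.10) at 18 h, and that of AXL was 0.02 (-0.38 to 0.42) and -0.22 (-0.62 to 0.18). The sign at 6 h depended on single libraries. Without 6 h replicate 3 the change was -0.24 for NGFR and -0.22 for AXL, and without uninduced replicate 1 it was -0.02 and -0.11. MET was lowest in 6 h replicate 3, at 93.5 CPM beside 116 and 117 CPM in the other two of 6 h, and its change went from -0.03 (-0.20 to 0.13) to 0.06 without it. None of these values was called with or without these libraries. DCT, a pigment enzyme, was also low in that library, at 349.7 CPM beside 593 and 545 CPM. It is 1 of 14 melanocytic genes listed and was picked after its values were seen, so it does not stand for the list. Of the 14, 11 were higher and 3 lower in SKMEL2 at 6 h by their log2 change, none called.

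At 18 h in SKMEL2, MET measured 113, 114 and 122 CPM, just above the uninduced libraries at 112, 109.7 and 113 CPM. It was the only tested receptor of SKMEL2 whose groups did not overlap at 18 h, which was so for 14.3% of all genes, and its change was 0.06 (-0.11 to 0.22). No tested receptor separated its groups at 6 h, in SKMEL2, where 6.81% of all genes did, or in SKMEL30, where 11.3% did. IGF1R in SKMEL2 measured 214, 189 and 204 CPM uninduced, 188, 184 and 196 CPM at 6 h and 215, 194 and 199.7 CPM at 18 h, with changes of -0.09 (-0.24 to 0.05) and 0.00 (-0.14 to 0.14).

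ERBB2 ranged from 15.4 to 20.3 CPM over the 9 SKMEL2 libraries and from 38.8 to 46.9 CPM over the 9 of SKMEL30, and its log2 changes lay between -0.07 and 0.04. FGFR1 ranged from 6.21 to 8.15 CPM in SKMEL2 and from 18.9 to 22.3 CPM in SKMEL30, with log2 changes between -0.14 and 0.01. For both genes the induced and uninduced ranges overlapped in each line at each time. AXL in SKMEL30 rested on 10 to 32 counts per library, from 0.667 to 1.69 CPM, and its changes of 0.22 at 6 h and 0.38 at 18 h had intervals of -0.55 to 0.99 and -0.38 to 1.14. With so few counts, these intervals leave room for a change of AXL in SKMEL30 in either direction.

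No receptor was called for a difference in response between the lines. For the 6 h response 0 of 7 were called, against 0% of 17133 genes, and for the 18 h response 0 of 7, against 0.00584%. The largest interaction in size was that of AXL at 18 h, -0.61 with an interval from -1.63 to 0.40 (edgeR adjusted p = 0.913).

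EGFR, below the filter, mostly moved between libraries together with keratinocyte genes. In SKMEL30 it was at 0 in the 3 uninduced libraries, at 0.468 and 1.87 CPM in replicates 1 and 3 of 6 h, with 2 counts in replicate 2, and at 0.272, 0 and 0.384 CPM at 18 h. The high value, of 6 h replicate 3, came from 40 counts. KRT5, a keratin of basal keratinocytes, measured 0.169, 0.273 and 0.380 CPM uninduced, 2.96, 0.0501 and 37.5 CPM at 6 h and 0.217, 0 and 6.48 CPM at 18 h. The 3 libraries highest in EGFR were the 3 highest in KRT5. In 6 h replicate 3, KRT14 was at 26.4 CPM and DSG3, a desmosomal cadherin of squamous epithelium, at 4.34 CPM. Among the other SKMEL30 libraries the pairing was looser. Replicate 1 of 18 h held 0.272 CPM of EGFR at 0.217 CPM of KRT5. In 6 h replicate 2, 2 counts of EGFR came with 0.0501 CPM of KRT5. That is less KRT5 than in each uninduced library, where EGFR was at 0. The 6 libraries highest in EGFR shared 4 with the 6 highest in KRT5. That number depends on how ties at 0 EGFR are broken.

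The same pairing was present in SKMEL2, where EGFR measured 0.349, 0.348 and 0.264 CPM uninduced, 0.0554, 0 and 0.132 CPM at 6 h and 0.395, 0.499 and 0 CPM at 18 h. KRT5 there measured 8.26, 5.22 and 3.61 CPM uninduced, 0.166, 0 and 4.02 CPM at 6 h and 5.84, 7.44 and 0 CPM at 18 h. The 2 libraries without EGFR were the 2 without KRT5, and the 6 libraries highest in EGFR were the 6 highest in KRT5. At each induced time of SKMEL2, libraries with KRT5 above 1 CPM stood beside libraries at or near 0.

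**Figure D5:**
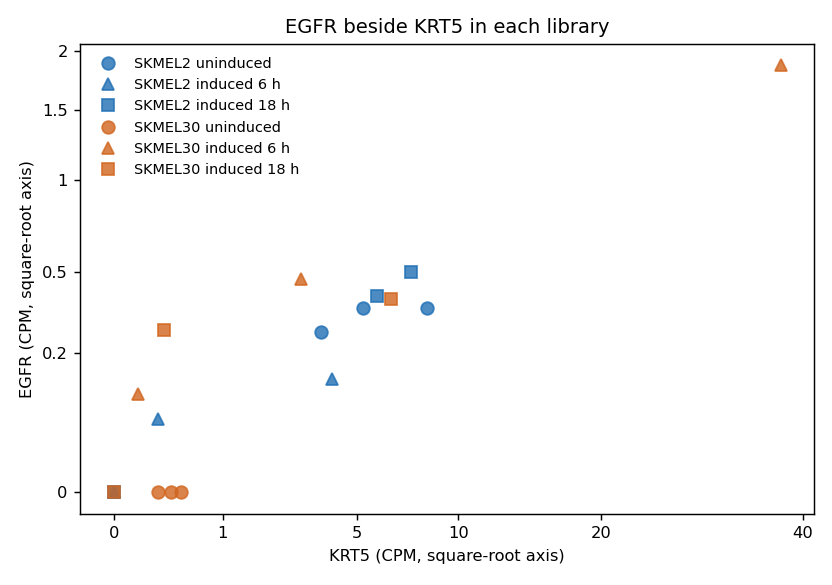
EGFR against KRT5 (CPM, square-root axes) in each of the 18 libraries. Replicate 3 of SKMEL30 at 6 h lies alone at 1.87 CPM of EGFR and 37.5 CPM of KRT5, the 3 uninduced SKMEL30 libraries lie at 0 EGFR with little KRT5, and 3 libraries lie on the same point at 0 for both genes.

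Of the 6 keratinocyte markers listed, KRT5, KRT14 and DSG3 went with EGFR, and KRT1 was at 0. KRT10 ranged from 17.2 to 20.5 CPM in SKMEL30, and TP63 did not exceed 0.607 CPM there. In SKMEL2, KRT10 ranged from 20.6 to 30.1 CPM and TP63 from 18.7 to 23.1 CPM, together the larger part of the sum in that line. The summed level of the list ran from 17.5 to 20.8 CPM in uninduced SKMEL30, from 19.9 to 88.3 CPM at 6 h and from 18.4 to 31.2 CPM at 18 h, and in SKMEL2 from 50.6 to 63.1, 46.0 to 57.2 and 45.3 to 62.7 CPM. In SKMEL30 the immune list summed to 33.5 to 37.9 CPM, the fibroblast list to 28.4 to 28.6 CPM uninduced and 29.8 to 33.5 CPM induced, and the endothelial list to 0.818 to 1.13 and 1.20 to 2.31 CPM. Each of these sums was mostly a single gene and no sign of the cell type as a whole. In SKMEL30, CD68 ranged from 33.1 to 37.6 CPM, LUM from 27.5 to 32.6 CPM and VWF from 0.763 to 2.20 CPM. The part of keratinocyte transcripts in the EGFR values was not tested.

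Tested with no filter on low counts, EGFR in SKMEL30 was called higher at 6 h (edgeR adjusted p = 4.14e-09) and at 18 h (0.00693), and DESeq2 also called it at 6 h (adjusted p = 0.0495). The mean of 6 h, 0.812 ± 0.932 CPM, was 4.41 times 0.184 CPM, the level that a count of 0 allows in the shallowest uninduced library. Without 6 h replicate 3 it was 1.54 times that level. The mean of 18 h, 0.219 ± 0.198 CPM, was 1.19 times that level, and without 18 h replicate 3 it was 0.136 CPM, under that level. The induced means rest on 6, 2 and 40 counts at 6 h and on 5, 0 and 7 counts at 18 h. Their own error is not in these ratios, which are therefore no lower bounds on a fold change. With no filter and without 6 h replicate 3, EGFR was not called at 6 h (edgeR adjusted p = 0.0623) but was at 18 h (0.0485) and over both times (0.0214). The 3 induced libraries with KRT5 above 1 CPM were also the 3 SKMEL30 libraries highest in EGFR. Leaving them out therefore lowers the EGFR change by construction and is no test of a link to KRT5. That fit kept 6 libraries, 1 of them at 6 h, so only the size of the change is given. The fitted log2 change was 6.89 with them and 3.91 without them at 6 h, and 5.05 and 4.42 at 18 h. These values depend on how a group at 0 counts is handled. KIT and PDGFRB were not called in any induction comparison with no filter.

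The partners of the receptors showed 0 calls on induction. Of the ligands, 12 were tested in SKMEL2 and 11 in SKMEL30, of the related receptors 11 and 9, of the adaptors 23 and 23, and of the inhibitors and turnover genes 28 and 27, and none was called at 6 h or at 18 h in either line (edgeR). At an unadjusted p under 0.05, 1 of 12 ligands passed at each time in SKMEL2, and 2 and 3 of 11 in SKMEL30. The related receptors gave 0 and 0 of 11 and 0 and 1 of 9, the adaptors 1 and 3 of 23 and 3 and 2 of 23, and the inhibitors 1 and 1 of 28 and 3 and 2 of 27. Over all genes these counts were 543 and 750 of 16120 in SKMEL2 and 968 and 1374 of 15026 in SKMEL30. The medians of the 4 lists lay between -0.06 and 0.05, beside 0.00 for all genes tested.

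The state lists held a few calls, which were made in SKMEL30. THBS1 (thrombospondin, a matrix protein) fell from 258, 242 and 243 CPM uninduced to 208, 198 and 189.8 CPM at 6 h and 204, 192 and 203 CPM at 18 h. The groups did not overlap, and the log2 change was -0.32 (SE 0.04, edgeR adjusted p = 9.28e-04) and -0.31 (SE 0.04, edgeR adjusted p = 0.00103). CCN1, a matrix protein and common readout of YAP activity, fell from 30.2, 29.1 and 29.2 CPM to 16.5, 19.1 and 15.4 CPM at 6 h and 21.3, 19.6 and 22.5 CPM at 18 h, with changes of -0.79 (SE 0.07, edgeR adjusted p = 6.93e-05) and -0.48 (SE 0.07, edgeR adjusted p = 0.00811). POU3F2, a transcription factor of the invasive state, fell at 6 h from a range of 41.8 to 45.8 CPM to 35.6 ± 1.23 CPM (-0.31, SE 0.05, edgeR adjusted p = 0.0337), but DESeq2 (adjusted p = 0.0648) and a fit without the 3 libraries with KRT5 (adjusted p = 0.268) did not call it. THBS1 and CCN1 stayed called at both times in that fit, and SLC45A2 at 18 h, with edgeR adjusted p from 0.00301 to 0.0296. SLC45A2, a melanosome transporter, fell at 18 h from 262, 273 and 269 CPM to 238, 237 and 243 CPM (-0.16, SE 0.03, edgeR adjusted p = 0.00912). Leaving out single libraries ended the 18 h calls of CCN1 and SLC45A2, with edgeR adjusted p of up to 0.0628 without uninduced replicate 1 and up to 0.0796 without 18 h replicate 1.

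In SKMEL30, 3 of 13 undifferentiated and 0 of 14 melanocytic genes were called lower at 6 h, against 0.113% of all genes, and 2 of 13 and 1 of 14 at 18 h, against 0.120%. In SKMEL2, 0 of 14 were called in either list. The 18 h changes of THBS1 and CCN1 there were -0.38 and -0.55, and their difference from SKMEL30 was not called (interaction -0.07 and -0.08, edgeR adjusted p = 0.981 and 0.992). The undifferentiated genes tested there were lower in 14 of 14 at 6 h (median log2 change -0.10) and in 13 of 14 at 18 h (median -0.19), beside 7920 and 8068 of all 16120 genes and a median of 0.00. In SKMEL30 they were lower in 9 of 13 at each time (median -0.01 and -0.07), beside 7470 and 7471 of 15026 genes. The melanocytic genes were higher in 11 of 14 at each time in SKMEL2 (median 0.07 at 6 h and 0.12 at 18 h). In SKMEL30 the melanocytic genes were lower in 12 of 14 at each time (median -0.05 and -0.04), so both lists leaned down in that line. The 2 times of a line share their uninduced libraries. MITF showed log2 changes of 0.07 (-0.05 to 0.20) and 0.01 (-0.11 to 0.13) in SKMEL2 and of -0.03 (-0.09 to 0.03) and -0.05 (-0.11 to 0.01) in SKMEL30, none called.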

How the data were processed

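Messenger RNA libraries of the 2 lines (KAPA mRNA HyperPrep, reads of 43 bases) were aligned by the authors to the Ensembl release 86 transcriptome on GRCh38 with STAR and quantified with RSEM. The submitters' processing notes list Trimmomatic 0.36, cutadapt 1.5, STAR 2.2.2a, SAMtools 1.8 and RSEM 1.3.0. The values deposited by the authors are expected counts per gene, unscaled, of which 12.35% are not whole because RSEM shares reads between genes. They were rounded. All 18 columns carried a sample name. Symbols were matched to 55604 gene identifiers (95.78%), and gene coordinates and promoters came from RefSeq GRCh38.p14 by symbol. Gene lengths came from a GENCODE annotation on GRCh37 by identifier. RefSeq promoters were used for 7 of the 10 receptors, and those of NGFR, ERBB3 and FGFR1 were not used here.

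In R 4.3.3 with edgeR 4.0.16, genes were filtered by filterByExpr, scaled by TMM and tested with glmQLFit and glmQLFTest. Induction was tested in 1 fit of the 9 libraries of a line (16120 genes in SKMEL2, 15026 in SKMEL30). The uninduced lines and the line differences in response were tested in 1 fit of all 18 (17133 genes). A call is a Benjamini-Hochberg adjusted p under 0.05. SE is the size of the log2 fold change divided by the square root of F. CPM values come from the 18-library scaling and fold changes from the fits. The fits were tried on simulated counts with the same spread for every gene and no outlying library. That is a check of the code and not of the calls in these data. Replicates differed by more than counting noise (chi-square per degree of freedom 2.13 to 20.62 in 18 pairs), and edgeR's common biological variation came to 8.36% for SKMEL2 and 4.11% for SKMEL30. A count of 0 allows up to 3 counts, 0.134 to 0.224 CPM by library, for counting error only.

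The receptors and gene lists were chosen with earlier results of these data known. Named were the 10 receptors, PPP2R3B, MITF and other melanocyte markers, the listed genes called on induction, and the 4 genes of each list that differed most between the uninduced lines at 5 CPM or more in 1 of them. KRT5, KRT14, DSG3, DCT, HGF, KITLG, FOSL1, CD44, CD68, LUM and VWF values were picked after they were seen. Alternatives were DESeq2 1.42.0, RLE factors, no filter, the replicate number as a block, only the 6 libraries compared, each library left out in turn and, for lengths, the longest transcript. Leaving out the 3 induced SKMEL30 libraries with KRT5 above 1 CPM was added after seeing the data.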

Additional observations from a re-analysis of the deposited data

Results flagged for a closer look

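EGFR at 6 h stood on opposite sides of the uninduced libraries in the 2 lines by its values as counted. In SKMEL2 the 3 libraries of 6 h lay below the 3 uninduced ones, and the mean changed by -0.258 CPM. In SKMEL30 the mean of 6 h was 0.812 CPM against uninduced libraries at 0 counts. Replicate 3 held 40 counts and replicate 1 held 6, and the 2 counts of replicate 2 lie under the level that a count of 0 allows, so that library cannot be said to have moved. The difference was not tested in the fit reported, where EGFR was below the filter. With no filter it was called (edgeR interaction -9.25 on the log2 scale, adjusted p = 1.86e-08), and in DESeq2 it was not (-8.65, adjusted p = 0.623). Both values rest on a group at 0 counts and are no measured folds, and the interaction was not run without replicate 3. The SKMEL2 change alone was not called with no filter (edgeR) or in DESeq2 (adjusted p = 1.00). KRT5 moved with it, and its part in the difference was not tested.

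SLC45A2 at 18 h was higher than uninduced in all 3 SKMEL2 libraries, by 2.29 CPM in the mean, and lower in all 3 SKMEL30 libraries, where the difference in means was -28.7 CPM. The interaction was 0.31 on the log2 scale (95% interval 0.17 to 0.45) and did not pass the adjusted threshold (edgeR adjusted p = 0.732).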

How the results depend on the processing

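The 7 tested receptors kept their calls between the uninduced lines and their lack of calls on induction in each alternative that gave them an adjusted p, except ERBB3 in SKMEL30 at 18 h with no filter. DESeq2 gave one to 3 of the 10 receptors at 18 h in each line (ERBB3, MET and IGF1R) and to 4 in SKMEL2 over both times. Counts of called genes moved more. With no filter, 168, 158 and 165 genes were called in SKMEL2 at 18 h, at 6 h and over both times (2, 2 and 3 as reported), 359, 321 and 370 in SKMEL30 (44, 31 and 39), and 216 and 237 for the line difference at 18 h and 6 h (1 and 0). DESeq2 called 16, 7 and 14 in SKMEL2, 69 in SKMEL30 at 18 h and 2 for the line difference at 18 h. The 6 libraries alone gave 9 in SKMEL2 at 18 h. Without the 3 libraries with KRT5, 25 genes were called in SKMEL30 over both times, and the log2 change of AXL at 6 h turned to -0.30 and that of FGFR1 at 18 h to -0.03. The cause of these shifts was not tested.

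Over the genes that passed the filter, replicate numbers gave little sign of pairing the samples. Of the same-numbered pairs, 3 of 9 in SKMEL2 and 2 of 9 in SKMEL30 had a correlation of deviations above 0.1. This does not speak for every gene, since AXL and NGFR rose with the replicate number in each SKMEL2 group. With the replicate number as a block, 7 genes were called in SKMEL2 at 18 h and 7 over both times, and the other counts stayed within 1.5 times.

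With each library left out in turn, called genes ran from 2 to 5 in SKMEL2 at 6 h and from 2 to 7 over both times (5 and 7 without 6 h replicate 3), from 25 to 30 in SKMEL30 at 18 h (27 without 18 h replicate 3, 25, 29 and 29 without uninduced replicates 1, 2 and 3), from 16 to 33 at 6 h (17 without 6 h replicate 3, 16 and 20 without uninduced replicates 1 and 3) and from 24 to 52 over both times (24 without uninduced replicate 1). The line differences gave 1 to 2 at 18 h (2 without SKMEL2 uninduced replicate 3) and 0 to 1 at 6 h (1 without SKMEL2 6 h replicate 1). Log2 changes not called crossed 0. In SKMEL2 at 6 h they ran from -0.24 to 0.25 for NGFR, -0.22 to 0.21 for AXL, -0.06 to 0.10 for ERBB2, -0.02 to 0.06 for ERBB3 and -0.09 to 0.06 for MET. In SKMEL2 at 18 h they ran from -0.10 to 0.09 for FGFR1, -0.05 to 0.08 for ERBB2, -0.02 to 0.03 for ERBB3 and -0.05 to 0.05 for IGF1R. In SKMEL30 they ran at 6 h from -0.08 to 0.04 for ERBB2, -0.01 to 0.02 for MET and -0.16 to 0.44 for AXL, and at 18 h from -0.05 to 0.06 for FGFR1 and -0.02 to 0.01 for MET. NGFR between the lines ran from -0.04 to 0.10. POU3F2 at 6 h was not called without 6 h replicate 1 or 3 or uninduced replicate 1 or 3 (adjusted p 0.147, 0.200, 0.238 and 0.174), nor with only 6 libraries (0.0549). At 18 h, CCN1 was not called without 18 h replicate 1 or 2 or uninduced replicate 1 (0.0567, 0.0551 and 0.0628), nor SLC45A2 without 18 h replicate 1 or 2 or uninduced replicate 2 (0.0796, 0.0795 and 0.0734), all edgeR. Depth limits AXL in SKMEL30 and EGFR, KIT and PDGFRB in both lines.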
